A study of Mus musculus with 9 samples.

Results

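The 9 genes Pck1, Pck2, G6pc, G6pc3, Fbp1, Pcx, Slc37a4, Khk and Akr1b3 encode enzymes and a transporter of glucose synthesis and of fructose metabolism in the kidney. They were taken by their symbols from the 21950 genes of the mRNA expression files, and the values of all transcripts of a gene were summed. All 9 passed the filter that left 14537 genes for testing. RNA was sequenced from the renal cortex of 3 mice in each of the groups named control, dbdb and dbR, with 1 library per mouse. All mice were males of the C57BL/KsJ db/db strain (BKS.Cg-Dock7m+/+Leprdb/Nju), in which the db mutation lies in the leptin receptor gene. Control mice were heterozygous (db/m) nondiabetic littermates, for which no treatment is given in the sources used here, and dbdb mice were homozygous and diabetic and received a vehicle by gavage. dbR mice were db/db mice given rosiglitazone, which activates the nuclear receptor PPARγ, by gavage at 20 mg/kg/day for 8 weeks from the age of 7 weeks. Kidneys of the 3 groups were compared at 15 weeks. Whether the mice were fasted when tissue was taken is not given in the sources used here, nor is a rosiglitazone group of control mice part of the design. A homozygous mutation of the leptin receptor acts in every tissue, so the mice are a model of obesity with diabetes and not of high glucose alone.

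The kidney cortex makes glucose. Proximal tubule cells take up lactate and glutamine and turn them into glucose that leaves the cell towards the blood. Pyruvate carboxylase (Pcx) makes oxaloacetate in mitochondria, phosphoenolpyruvate carboxykinase turns this into phosphoenolpyruvate in the cytosol (Pck1) or in mitochondria (Pck2), and fructose-1,6-bisphosphatase (Fbp1) removes a phosphate further along. Glucose-6-phosphate is then carried into the endoplasmic reticulum by the transporter Slc37a4 and split to free glucose by the catalytic subunit G6pc, while G6pc3 is the form found in most tissues. Insulin lowers the transcription of Pck1 and G6pc, and glucagon, glucocorticoids and, for renal Pck1, acidosis raise it. Fructose enters metabolism through ketohexokinase (Khk). Aldose reductase (Akr1b3) reduces glucose to sorbitol, which sorbitol dehydrogenase can turn into fructose inside the cell.

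The promoters of Pck1 and G6pc are shown because these genes had the largest increases among the 9. Both sequences are from RefSeq (GRCm38.p6, plus strand) and begin 250 bases before the RefSeq start. That of Pck1 lies at chr2:173152823-173153072, with its last 25 bases inside the GENCODE gene, and the printed stretch of G6pc, which ends 30 bases inside the GENCODE transcript that starts further upstream, at chr11:101367466-101367590. Capitals mark matches to the motifs named below.
Pck1 promoter: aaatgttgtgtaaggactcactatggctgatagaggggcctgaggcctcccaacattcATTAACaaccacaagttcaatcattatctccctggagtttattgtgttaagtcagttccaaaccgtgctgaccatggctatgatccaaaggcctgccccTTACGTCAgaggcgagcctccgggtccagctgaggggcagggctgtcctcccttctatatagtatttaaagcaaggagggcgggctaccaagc
G6pc promoter: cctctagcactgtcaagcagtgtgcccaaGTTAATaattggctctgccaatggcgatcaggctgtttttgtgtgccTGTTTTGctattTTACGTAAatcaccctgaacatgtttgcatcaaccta
The letters of 8 motifs were looked for on both strands in the 250 bases before the start in all 32851 promoters of the table. They were chosen after the sequences had been read. TTACGT, part of a cAMP response element, began 93 bases before the Pck1 start and 162 and 160 bases before the G6pc start on opposite strands, and was in 2.4% of all promoters. In Pck1 it overlaps CGTCA, the core of the same element, which was in 17.8% of promoters. GTTAAT, a part of the HNF1 motif, lay 192 bases before the Pck1 start and 221 bases before the G6pc start and was in 6.43% of promoters. TGTTTTG, an insulin response motif bound by FoxO proteins, lay 174 bases before the G6pc start and was in 5.56% of promoters. G6pc also had AGGTCA, which nuclear receptors bind, 54 bases before its start (14.0% of promoters) and TATAAA 29 bases before it (12.4% of promoters), both past the printed stretch. Of the full cAMP response element TGACGTCA and the forkhead motif TGTTTAC, found in 1.55% and 3.17% of promoters, no copy was in the 11 windows of the 8 genes that the table holds. Elsewhere in these windows, Slc37a4 had both cAMP response element parts, the nuclear receptor motif and TATAAA across its windows, Khk had CGTCA and GTTAAT, and Pck2 had TGTTTTG. G6pc3, Fbp1 and Pcx had no copy of any of the 8 motifs. Letters of a motif are not evidence of binding.

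A pair of Khk exons is shown because they separate the protein forms of ketohexokinase. Khk-C, made with exon 3c, binds fructose with high affinity and is the form of liver, kidney and intestine, and Khk-A, made with exon 3a, has a low affinity and is found in many tissues. The exons lie side by side on chromosome 5 (GRCm38, plus strand, GENCODE annotation) at chr5:30926688-30926822 and chr5:30927022-30927156. Capitals mark the bases that differ between them.
Khk exon 3a: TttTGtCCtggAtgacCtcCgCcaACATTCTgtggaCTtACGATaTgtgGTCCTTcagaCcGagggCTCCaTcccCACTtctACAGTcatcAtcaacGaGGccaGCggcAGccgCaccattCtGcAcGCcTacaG
Khk exon 3c: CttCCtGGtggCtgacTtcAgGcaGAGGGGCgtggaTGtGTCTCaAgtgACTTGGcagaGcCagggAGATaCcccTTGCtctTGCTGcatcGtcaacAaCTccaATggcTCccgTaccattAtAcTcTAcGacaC
Each exon is 135 bases long, and 73 bases (54.1%) are identical at the same position.

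In GRCm38 (GENCODE M21, strand in parentheses) Pck1 at chr2:173153048-173159273 (plus), Pck2 at chr14:55540266-55551242 (plus), G6pc at chr11:101367561-101377903 (plus) and G6pc3 at chr11:102189620-102194081 (plus) were annotated. The others were Fbp1 at chr13:62864753-62888282 (minus), Pcx at chr19:4510472-4621752 (plus), Slc37a4 at chr9:44396852-44402968 (plus), Khk at chr5:30921431-30931248 (plus) and Akr1b3 at chr6:34302434-34317478 (minus). Values were summed over whole genes, exons of all transcripts included.

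Levels are given as FPKM, fragments per kilobase of transcript scaled to the mapped fragments of the library, which allows levels of different genes to be set side by side. Ranked by mean FPKM over the 9 libraries, Pck1 was 31st and Fbp1 65th among all genes, G6pc was 220th, Khk 234th, Slc37a4 447th and Pcx 465th. Akr1b3 (2576th) and G6pc3 (3703rd) were expressed at a lower level, and Pck2 (9889th) had a mean of 2.77 FPKM. The order of the levels differed between the groups. In control mice Fbp1 was the highest of the 9, above Pck1 in every library, while in dbdb and dbR mice Pck1 was above Fbp1 in every library. Khk lay above G6pc in every control library and below it in every dbdb and dbR library, although in dbR mice the ranges of this pair overlapped. Levels of Pcx and Slc37a4 overlapped in each of the 3 groups. Akr1b3 exceeded G6pc3 in all control libraries, and the levels of both overlapped in dbdb and dbR mice.

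**Figure D1:**
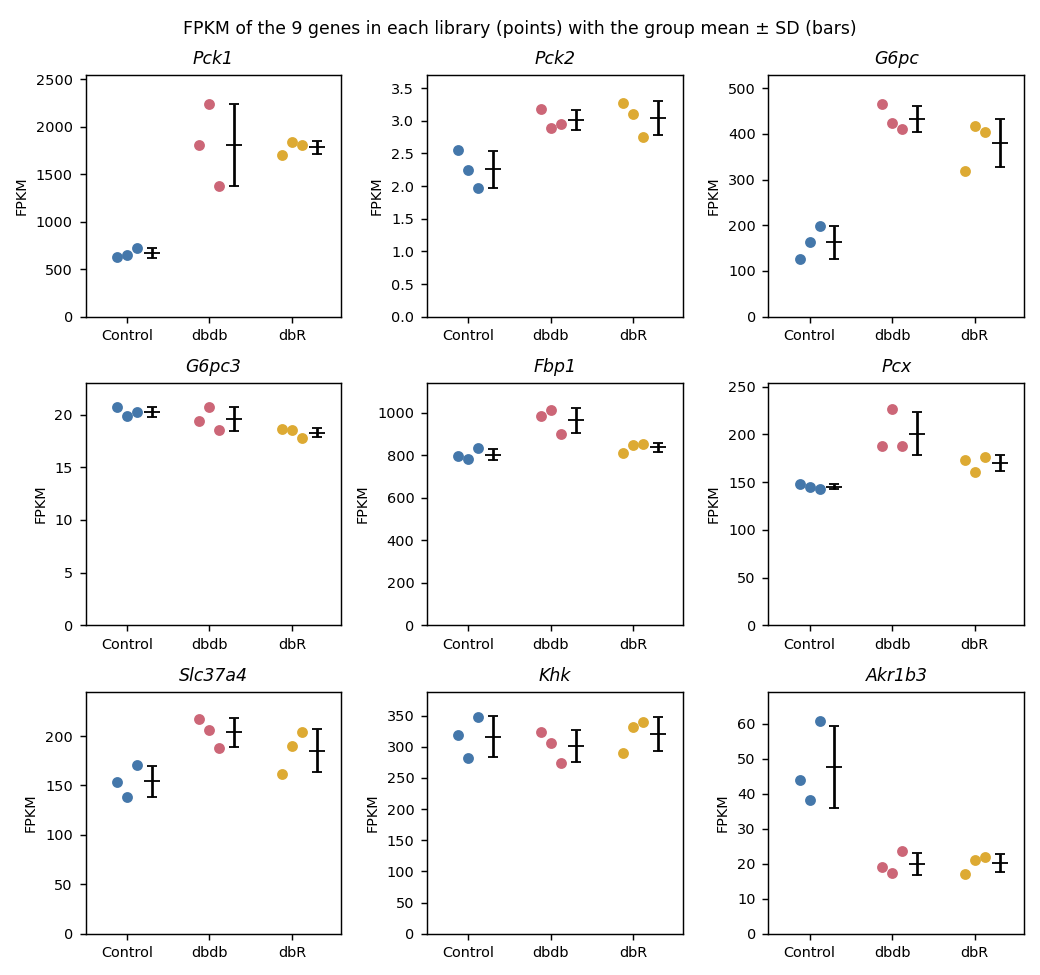
FPKM of the 9 genes (linear axis from 0, a scale for each gene) in the control, dbdb and dbR libraries, with 1 point per mouse and the mean ± SD of the group beside the points. Pck1 and G6pc were higher in all dbdb and dbR libraries than in any control library, Akr1b3 was lower in all of them, and Khk and G6pc3 stayed within a narrow range.

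To find which steps differ in the diabetic cortex, dbdb mice were compared with control mice with limma on log2(FPKM + 0.1). A gene was called at a Benjamini-Hochberg adjusted p under 0.05 over all 14537 genes, and SE is the standard error of the log2 difference. Of the 7 genes of gluconeogenesis, 6 (Pck1, Pck2, G6pc, Fbp1, Pcx and Slc37a4) were higher in dbdb mice and G6pc3 was not called. Of the genes of fructose metabolism, Akr1b3 was lower and Khk was not called. Among all genes tested 26.4% were called, 13.1% as higher and 13.4% as lower, and the groups did not overlap in 42.4%. Once mitochondrially encoded genes were removed and each library was brought to an equal sum, the median of all genes moved to 0.15 on the log2 scale and the share of higher genes among those called rose from 49.5% to 78.3%. The 6 increases and the decrease of Akr1b3 had the same direction under this and each other scaling tried. With any 1 library left out, between 4 and 6 of the 9 genes were called. Pck1, G6pc, Pcx and Akr1b3 were called each time.

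Pck1, the cytosolic carboxykinase and a rate-controlling enzyme of gluconeogenesis, had an FPKM of 630.5, 645 and 728 in control mice and of 1808, 2236 and 1371 in dbdb mice. Every dbdb library was above every control library, although dbdb libraries spread more widely, with a mean of 1805 ± 432 (SD, n = 3) against 668 ± 52.9. The log2 difference was 1.41 (SE 0.15, adjusted p = 0.000207), or 2.66-fold. The gene lies on chromosome 2 (plus strand, GRCm38), and the 10-exon Pck1-201 was its only transcript in the deposited values. Pck2, the mitochondrial form, was at 2.55, 2.25 and 1.98 FPKM in control mice and at 3.18, 2.89 and 2.96 in dbdb mice. These groups did not overlap, but the distance between the nearest libraries was small, and the log2 difference was 0.41 (SE 0.12, adjusted p = 0.0273). The call of Pck2 was lost without control replicate 2 or 3 or any 1 of the dbdb replicates, with an adjusted p of up to 0.0947, and after quantile normalization (0.0594). With those libraries left out its log2 difference was 0.32 to 0.43. Pck2 also overlaps the antisense gene Gm10876, and whether reads were divided by strand is not given in the sources used here. Within a library, the FPKM of Pck1 was 301 ± 61.7 times that of Pck2 in control mice and 602 ± 157 times in dbdb mice (n = 3 each).

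G6pc, which releases free glucose, had an FPKM of 126.5, 163 and 199 in control mice and of 465, 425 and 409 in dbdb mice. The lowest dbdb library was above the highest control library by more than the range of either group. The log2 difference was 1.43 (SE 0.15, adjusted p = 0.000193), or 2.7-fold, which is close to that of Pck1. Its widespread relative G6pc3 was at 20.8, 19.8 and 20.2 FPKM in control mice and at 19.4, 20.7 and 18.5 in dbdb mice, so that the groups overlapped. For G6pc3 the log2 difference was -0.05 (95% interval -0.18 to 0.08, adjusted p = 0.561), and it turned to 0.11 without mitochondrial genes and also to 0.11 where only its most abundant transcript was used. The ratio of G6pc to G6pc3 within a library was 8.05 ± 1.88 in control mice and 22.2 ± 1.72 in dbdb mice. Slc37a4, the transporter that feeds G6pc, was at 154, 138 and 170.3 FPKM in control mice and at 217, 206 and 188 in dbdb mice. Its groups did not overlap, and the log2 difference was 0.41 (SE 0.10, adjusted p = 0.0174). Without control replicate 2, dbdb replicate 1 or dbdb replicate 2 the adjusted p of Slc37a4 was 0.0614, 0.0555 and 0.0532, at log2 differences of 0.33, 0.36 and 0.40. G6pc and Slc37a4 stood at a ratio of 1.06 ± 0.202 in control mice and of 2.13 ± 0.0614 in dbdb mice.

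Fbp1, which acts between the carboxykinase and the phosphatase, was at 795, 781 and 834 FPKM in control mice and at 984, 1012 and 898 in dbdb mice. The groups did not overlap, and the log2 difference was 0.26 (SE 0.07, adjusted p = 0.0275), the smallest of the 6 increases. Leaving out control replicate 1 or 2 or dbdb replicate 1 or 2 gave an adjusted p between 0.0703 and 0.105, at log2 differences of 0.23 to 0.26. The call was also lost with the 6 libraries of the comparison alone (adjusted p = 0.0506) and with a replicate block (0.0755). Pcx, the mitochondrial entry step, was at 148, 145 and 143 FPKM in control mice and at 187, 227 and 188 in dbdb mice. Control libraries lay within 5 FPKM of each other, all dbdb libraries were above them, and the log2 difference was 0.46 (SE 0.08, adjusted p = 0.00246). The ratio of Pck1 to Fbp1 in a library was 0.831 ± 0.0402 in control mice and 1.86 ± 0.342 in dbdb mice. Gluconeogenic genes were higher by unequal amounts, with Pck1 and G6pc above 1 on the log2 scale and the other 4 below 0.5 in this fit. Without mitochondrial genes Pck1 and G6pc were at 1.57 and 1.59, and Pcx, Slc37a4, Pck2 and Fbp1 at 0.62, 0.56, 0.56 and 0.42. After quantile normalization the latter were at 0.58, 0.53, 0.31 and 0.35.

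Akr1b3, the aldose reductase of the polyol pathway, was at 43.9, 38.2 and 60.6 FPKM in control mice and at 19.1, 17.4 and 23.6 in dbdb mice. Each dbdb library was below each control library. On the log2 scale Akr1b3 fell by 1.23 (SE 0.17, adjusted p = 0.000778), to 0.427 of the control level. Akr1b3 overlaps the antisense gene Gm14546, so the division of reads between these loci is uncertain. Of the other members, Pcx overlaps Lrfn4 on the opposite strand and Slc37a4 overlaps the microRNA gene Mir7085 on its own strand. Khk was at 319.6, 282 and 348 FPKM in control mice and at 323, 306 and 274 in dbdb mice. The groups overlapped, and the log2 difference was -0.07 (95% interval -0.29 to 0.15, adjusted p = 0.635), with the sign turning to 0.088 without mitochondrial genes and to 0.032 after quantile normalization. With 1 library left out it lay between -0.15 (without control replicate 2) and -0.00012 (without control replicate 3). Khk exceeded Akr1b3 by 6.80 ± 0.922 times in control mice and by 15.4 ± 3.26 times in dbdb mice.

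**Figure D2:**
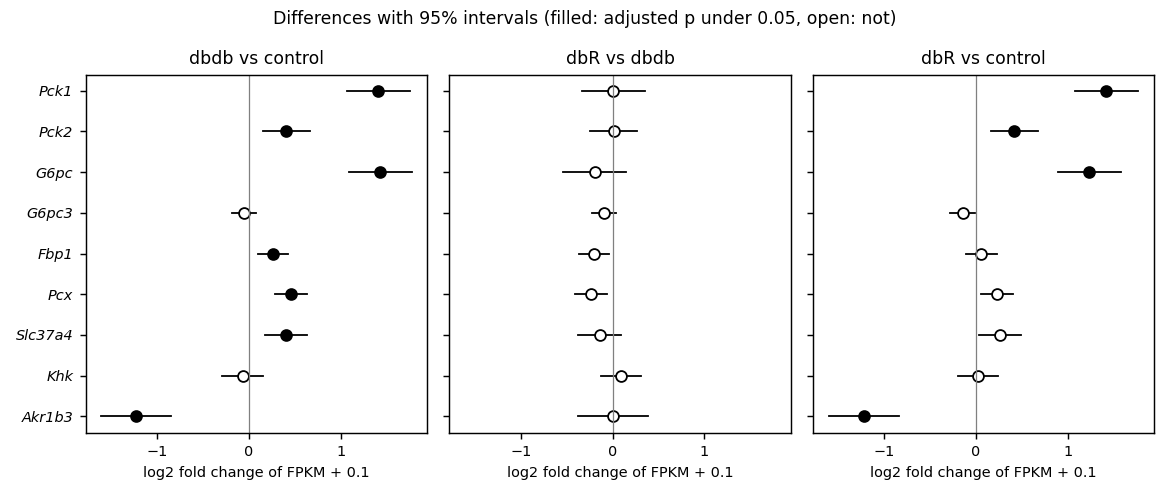
Log2 fold changes of FPKM + 0.1 for the 9 genes in the 3 comparisons, with 95% intervals from limma (n = 3 libraries per group; filled points, adjusted p under 0.05). Pck1 and G6pc lay above 1 and Akr1b3 below -1 against control in both dbdb and dbR mice, and in dbR vs. dbdb no gene was called.

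In bulk tissue, fewer cells of a type and less RNA per cell cannot be told apart. The marker counts for dbdb mice stand beside 26.4% of all genes called against control, 13.1% as higher and 13.4% as lower. The 10 markers of the proximal tubule, where gluconeogenesis takes place, summed to between 5167 and 5248 FPKM in control mice, between 4317 and 5105 in dbdb mice and between 4694 and 4892 in dbR mice, and 2 of them were higher and 2 lower in dbdb mice. Of 6 markers of its last segment, S3, 5 were lower in dbdb mice, and their sum fell from between 911.9 and 1394 to between 151.6 and 159.8 FPKM (193.9 to 248.2 in dbR mice), while Slc5a1 was not called. Of 7 collecting duct markers 6 were higher, with sums of 127.5 to 149.3 FPKM in control mice, 205.8 to 297.6 in dbdb mice and 225.2 to 238 in dbR mice. All 3 markers of the distal convoluted tubule were higher as well (155.9 to 175.9 FPKM in control, 286.7 to 313.6 in dbdb and 320.3 to 359.3 in dbR mice). For the thick ascending limb 1 of 4 was higher (366.8 to 467.5, 362.5 to 571.6 and 439.5 to 506.3 FPKM). That is 25%, a share close to that of all genes, and its sums overlapped between the groups. For podocytes 2 of 5 were higher (73.4 to 83.8, 86.0 to 92.3 and 79.4 to 96.6 FPKM). Of the endothelial markers 4 of 5 were lower in dbdb mice (104.5 to 116.6, 79.1 to 86.2 and 110 to 127.8 FPKM), of the immune markers 4 of 6 (22.5 to 25.8, 10.8 to 18.4 and 14.2 to 19.6 FPKM) and of the stromal markers none of 4 (21.2 to 38.6, 17.8 to 25.3 and 24.1 to 33.3 FPKM). Of 5 hepatocyte markers 2 were higher and 2 lower (1336 to 1777, 592.8 to 875.2 and 635.7 to 936.9 FPKM), and nearly all of the sum was Cyp2e1, at 584.7 to 1770 FPKM in the 9 libraries. Alb, the defining marker, lay between 4.81 and 17.4 FPKM, and Apoa1, Ttr and Serpina1c did not exceed 1.15 FPKM. Adipocyte markers summed to between 21.9 and 46.5 FPKM, of which Fabp4 alone made 21.9 to 45.8 and no other marker more than 1.88, with 2 of 4 tested lower in dbdb mice and Adipoq and Plin1 listed at 0 in all dbdb libraries. The part of these shifts in the differences of the 9 genes was not tested. Lepr, which carries the db mutation, was at 1.05 to 1.23 FPKM in control, 0.304 to 0.652 in dbdb and 0.335 to 0.512 in dbR libraries. All control libraries lay above all dbdb and dbR libraries, but dbdb and dbR overlapped, so Lepr does not separate these groups.

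To find whether rosiglitazone treatment came with other levels in the diabetic cortex, dbR mice were compared with dbdb mice. None of the 9 genes was called by limma, where 0.743% of all genes were called (0.564% as higher and 0.179% as lower) and the groups did not overlap in 22.7%. Without mitochondrial genes the share of higher genes among those called went from 75.9% to 48.6%. At an unadjusted p under 0.05 in limma there were 2 genes, Fbp1 and Pcx, beside 17.5% of all genes. Fbp1 was at 812, 847 and 851 FPKM in dbR mice, below each dbdb library, with a log2 difference of -0.20 (SE 0.07, adjusted p = 0.201). With mitochondrial genes left out it passed the threshold by a small margin, at -0.27 (adjusted p = 0.0497), and over the other alternatives, each library left out among them, its adjusted p lay between 0.0644 and 0.44. Pcx was at 173, 161 and 177 FPKM, also below each dbdb library, with -0.23 (SE 0.08, adjusted p = 0.171). Slc37a4 was at 162, 189.7 and 204 FPKM in dbR mice, overlapping the dbdb libraries, with -0.14 (95% interval -0.37 to 0.09, adjusted p = 0.518). Without dbR replicate 1 the difference of Slc37a4 was -0.047, and without dbdb replicate 2 that of Pcx was -0.14. Of the cell type markers, Kdr and Emcn of endothelium (2 of 5), Pdgfrb of stroma (1 of 4), Fabp4 of adipocytes (1 of 4), Slc7a13 of S3 (1 of 6) and Atp6v1g3 of the collecting duct (1 of 7) were higher in dbR than in dbdb mice, and none was called as lower. Their part in the differences of the 9 genes was not tested.

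Pck1 was at 1704, 1842 and 1805 FPKM in dbR mice, inside the range of the dbdb libraries and with a smaller spread (mean 1784 ± 71.2). The log2 difference was 0.01 with a 95% interval from -0.33 to 0.36, and it turned to -0.053 without mitochondrial genes and to -0.18 after quantile normalization. In adipose tissue Pck1 is a target gene of PPARγ, the receptor of rosiglitazone. G6pc was at 319.6, 417 and 403 FPKM, with a log2 difference of -0.20 (95% interval -0.54 to 0.15, adjusted p = 0.551), and 2 of the 3 libraries were below all dbdb libraries. Without dbR replicate 1 the difference was -0.076. Pck2 was at 3.26, 3.11 and 2.75 FPKM and Akr1b3 at 17.1, 21.1 and 22.0 FPKM, and both overlapped the dbdb libraries with a log2 difference of 0.01. The signs of both turned without mitochondrial genes, to -0.049 and -0.056, and that of Pck2 also after quantile normalization, to -0.0021. Akr1b3 had a 95% interval from -0.37 to 0.39. G6pc3 was at 18.6, 18.5 and 17.8 FPKM (-0.10, adjusted p = 0.444), and Khk at 289.8, 332 and 340 FPKM (0.09, adjusted p = 0.678, or -0.027 after quantile normalization).

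dbR mice were also set against control mice, a comparison that shares libraries with both others. Of the 9 genes 4 were called, with Pck1, Pck2 and G6pc higher and Akr1b3 lower, where 24.1% of all genes were called (12.3% as higher and 11.8% as lower) and the groups did not overlap in 41.9%. Leaving out mitochondrial genes moved the share of higher genes among those called from 51.1% to 70.5%. The log2 differences were 1.42 for Pck1 (SE 0.15, adjusted p = 0.00023), 1.24 for G6pc (SE 0.15, adjusted p = 0.000479), 0.42 for Pck2 (SE 0.12, adjusted p = 0.0261) and -1.22 for Akr1b3 (SE 0.17, adjusted p = 0.000881). In Pck1, Pck2, G6pc and Akr1b3 no dbR library reached the range of the control libraries. Pck2 lost its call without control replicate 2 or 3 or without dbR replicate 1 or 2 (adjusted p of up to 0.0899) and after quantile normalization (0.0652). Fbp1, Pcx and Slc37a4, called as higher in dbdb mice, were not called in dbR mice, with log2 differences of 0.06 (95% interval -0.11 to 0.23, adjusted p = 0.611), 0.23 (0.05 to 0.40, adjusted p = 0.0616) and 0.26 (0.03 to 0.50, adjusted p = 0.0922). Without mitochondrial genes Fbp1 was at 0.15 (adjusted p = 0.0542). Pcx did not overlap between dbR and control mice and was called at an adjusted p of 0.0323, 0.0211 and 0.0359 after 75th percentile scaling, without mitochondrial genes and after quantile normalization, and of 0.0295 with the 6 libraries of the comparison alone. Slc37a4 was called under the same scalings (adjusted p = 0.0482, 0.00422 and 0.00421) and without dbR replicate 1 (0.0364). G6pc3 had a log2 difference of -0.15 to control (95% interval -0.28 to -0.01, adjusted p = 0.1), with no overlap between the groups, but -0.053 without mitochondrial genes (adjusted p = 0.646) and 0.011 with its most abundant transcript. Khk had one of 0.02 (-0.20 to 0.24, adjusted p = 0.9).

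**Figure D3:**
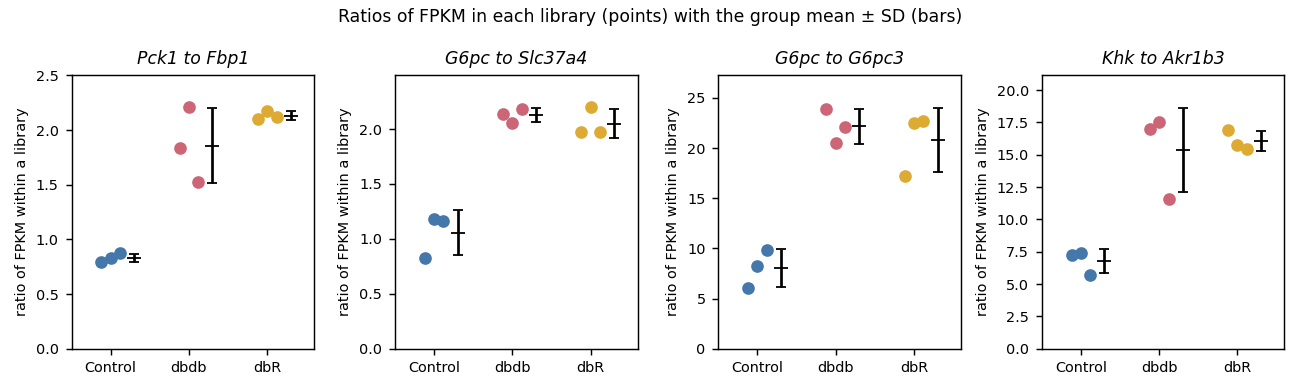
Ratios of the FPKM of 2 genes within each library (linear axis from 0), with 1 point per mouse and the mean ± SD of the group. The ratios of Pck1 to Fbp1, G6pc to Slc37a4, G6pc to G6pc3 and Khk to Akr1b3 were higher in every dbdb and dbR library than in any control library, and the dbR libraries overlapped the dbdb libraries in each.

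Ratios within a library do not change when the library is multiplied by 1 factor, but they do under quantile normalization. In dbR mice the ratio of Pck1 to Fbp1 was 2.13 ± 0.0393, G6pc to Slc37a4 2.05 ± 0.130, G6pc to G6pc3 20.8 ± 3.14, Khk to Akr1b3 16.0 ± 0.767 and Pck1 to Pck2 590 ± 67.0 (n = 3). All 5 were above the control range and overlapped the dbdb range. The ratios are given as a description and were not tested.

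Transcripts of the 9 genes were fitted in the same way. Of 29362 transcripts, 9.57% were called in dbdb vs. control. In Khk, Khk-204, which holds exon 3c alone, carried 91.9% to 93.8% of the Khk FPKM in the 9 libraries. Khk-205, which holds exon 3a alone, carried 0.635% to 1.27%, Khk-201, a model with both exons, 4.76% to 6.57%, and Khk-203, with neither, 0.45% to 0.952%. Control, dbdb and dbR mice had a mean share of Khk-204 of 92.6 ± 0.544%, 93.2 ± 0.422% and 93.3 ± 0.458% (SD, n = 3). The share of Khk-201 was 5.66% to 6.57% in control mice, above the 4.76% to 5.25% of dbdb mice and the 4.95% to 5.55% of dbR mice, and that of Khk-203 was 0.45% to 0.664% in control mice and 0.674% to 0.952% in dbdb mice. The shares were not tested. None of the 4 transcripts was called in dbdb vs. control, and the nearest was Khk-201 with a log2 difference of -0.32 (adjusted p = 0.0518). The exon 3c sequence above is therefore the one that most Khk FPKM was assigned to, in each of the 3 groups.

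Pcx has a pair of annotated start sites on chromosome 19. Pcx-201 begins at position 4510472 and carried 60.7% to 71.7% of the Pcx FPKM, and Pcx-202 begins at position 4594346 and carried 28.3% to 39.3%. Both were called as higher in dbdb mice, Pcx-201 with a log2 difference of 0.36 (adjusted p = 0.0187) and Pcx-202 with 0.66 (adjusted p = 0.0392). The share of Pcx-202 was 31.1 ± 4.77% in control mice, 35.8 ± 3.97% in dbdb mice and 34.2 ± 2.69% in dbR mice, with overlap between the groups. Pck1-201 (1.41, adjusted p = 0.00153), G6pc-201 (1.43, adjusted p = 0.00149) and Akr1b3-201 (-1.23, adjusted p = 0.00469) were called too. The main transcripts of Fbp1, Slc37a4 and Pck2 had adjusted p-values of 0.0536, 0.0504 and 0.0916 in the larger family of transcripts. In dbR vs. dbdb 0.017% of transcripts were called, none of them from these genes.

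The steps around the 9 genes were described with lists of genes, each of which had been chosen with earlier results of these data known. Of 9 enzymes that serve both glycolysis and gluconeogenesis, 2 (22.2%) were higher in dbdb mice and none was called as lower, a share below the 26.4% called among all genes, with a median log2 difference of 0.04 beside -0.003 over all genes. These were Aldoc, an aldolase (0.78, adjusted p = 0.00413), and Eno1, an enolase (0.36, adjusted p = 0.0215). Scaling mattered here, as 5 of the 9 were called as higher without mitochondrial genes. Under that scaling 3492 of all 14526 genes tested were called as higher, and the median of all genes was 0.15.

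Of 24 genes of substrate entry and of the mitochondrial step, 9 were higher and 4 lower in dbdb mice (54.2% called beside 26.4% of all genes, median 0.07). Without mitochondrial genes 12 were higher and 3 lower, where 4461 of all 14526 genes tested were called, 78.3% of them as higher. Pdk4, the kinase that holds back pyruvate oxidation, was highest in difference, with 1.20 to 1.50 FPKM in control mice and 3.64 to 5.21 in dbdb mice (1.60, adjusted p = 7.33e-05), and Pdk2 of the same family was at 0.53 (adjusted p = 0.00579). Glud1, which turns glutamate into α-ketoglutarate, rose from 163 ± 11.4 to 301 ± 28.5 FPKM (0.88, adjusted p = 0.000123). Of the transaminases that move oxaloacetate and aspartate, Got2 (0.45, adjusted p = 8e-04) and Got1 (0.30, adjusted p = 0.0092) were higher. Among lactate and pyruvate carriers, Slc5a12 (0.55, adjusted p = 0.00106) and Slc16a7 (0.49, adjusted p = 0.00246) were higher, while Slc5a8, which like Slc5a12 brings lactate in with sodium, was lower (-0.62, adjusted p = 0.00201). Gpd1, the cytosolic glycerol phosphate dehydrogenase (0.33, adjusted p = 0.00604), and the dicarboxylate carrier Slc25a10 (0.33, adjusted p = 0.0132) were higher. Gpd2, the mitochondrial glycerol phosphate dehydrogenase (-0.57, adjusted p = 0.00218), and Ldha, a lactate dehydrogenase subunit (-0.41, adjusted p = 0.00884), were lower. In the main fit this list was the one with calls in dbR vs. dbdb, where 2 of its genes were lower. They were 3 after 75th percentile scaling, 3 without mitochondrial genes and 4 after quantile normalization, where 189, 107 and 234 of all genes were called. Without mitochondrial genes and after quantile normalization other lists had calls too. Pdk4 was at 1.95 to 2.18 FPKM in dbR mice and so below every dbdb library (-0.98, adjusted p = 0.0254). Against control mice 8 were higher and 4 lower in dbR mice (50% beside 24.1% of all genes).

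Of 11 genes tested for the steps of glycolysis that gluconeogenesis bypasses, 5 were higher in dbdb mice, none was called as lower and 6 were not called (median 0.26), beside the 26.4% called among all genes. The 5 were the hexokinase Hk1 (0.88, adjusted p = 0.000252), the pyruvate kinases Pklr (0.84, adjusted p = 0.000362) and Pkm (0.84, adjusted p = 0.000138), and the phosphofructokinases Pfkl (0.44, adjusted p = 0.00161) and Pfkm (0.26, adjusted p = 0.00674). Pklr was at 34.7 ± 2.74 FPKM in dbdb mice and Pkm at 81.7 ± 9.39, beside 1805 for Pck1, and Pfkl at 12.7 ± 0.505 beside 965 for Fbp1. Hk2, another hexokinase, did not overlap between the groups but was not called (-0.55, adjusted p = 0.106). The same number, 5, was higher in dbR vs. control (45.5% beside 24.1% of all genes), and none was called in dbR vs. dbdb. Fbp2, the muscle form of fructose-1,6-bisphosphatase, was at 9.45 ± 1.40 FPKM in control mice and 13.1 ± 1.42 in dbdb mice (0.47, adjusted p = 0.0355), and G6pc2 was below the filter.

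Of 11 partners in fructose and polyol metabolism, 3 were higher and 2 lower in dbdb mice (45.5% called beside 26.4% of all genes, median -0.0018). Slc2a5, the fructose transporter of the apical membrane, was at 34.4 ± 6.20 FPKM in control mice and 51.3 ± 7.61 in dbdb mice (0.58, adjusted p = 0.0139), and Slc2a8, another hexose transporter, was at 0.60 (adjusted p = 0.00411). Tkfc, which phosphorylates the glyceraldehyde made from fructose, was at 107 ± 3.54 and 145 ± 18.0 FPKM (0.43, adjusted p = 0.00468). Akr1b7 and Akr1b10, relatives of Akr1b3, were lower (-0.62, adjusted p = 0.0412, and -0.43, adjusted p = 0.0217), and both lost their calls without mitochondrial genes. Sord, the sorbitol dehydrogenase downstream of Akr1b3, was abundant at 936 ± 83.2 and 936 ± 96.4 FPKM (-0.0018, adjusted p = 0.992). None of the 11 was called in dbR vs. dbdb, with the nearest being Tkfc, at 109 ± 4.71 FPKM in dbR mice and below every dbdb library (-0.40, adjusted p = 0.0568). Tkfc passed without mitochondrial genes and after quantile normalization, as did Slc2a2, the basolateral glucose and fructose transporter. After quantile normalization 3 of the 11 were called as lower, Tkfc and Slc2a2 among them. In dbR vs. control 1 of the 11 (9.09% beside 24.1% of all genes), Slc2a8, was higher (0.51, adjusted p = 0.00984).

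Of 21 hormonal and transcriptional regulators of these genes, 8 were higher and 1 lower in dbdb mice (42.9% called beside 26.4% of all genes, median 0.18). Cebpb, a bZIP factor that binds the Pck1 promoter, was at 6.42 to 10.2 FPKM in control mice and 19.6 to 33.4 in dbdb mice (1.48, adjusted p = 0.00335). Foxo3 (1.18, adjusted p = 1.1e-05) and Foxo1 (0.76, adjusted p = 0.00014), forkhead factors that insulin keeps out of the nucleus, were higher, as were Sik1, a kinase that limits cAMP-driven transcription (0.79, adjusted p = 0.000356), and the fatty acid receptor Ppara (0.78, adjusted p = 0.000151). Irs1 (0.62, adjusted p = 0.00127) and Insr (0.33, adjusted p = 0.0285) of insulin signalling and the carbohydrate response factor Mlxipl (0.38, adjusted p = 0.0166) completed the 8. Nr3c1, the glucocorticoid receptor, was lower (-0.39, adjusted p = 0.00452). Ppargc1a, a coactivator of gluconeogenic genes, was at 29.1 ± 3.82 FPKM in control mice and 30.6 ± 1.83 in dbdb mice (0.08, adjusted p = 0.571), and Hnf4a at 239 ± 13.3 and 222 ± 10.4 (-0.11, adjusted p = 0.307). No regulator was called in dbR vs. dbdb. The nearest were Foxo3 at 30.2 to 35.3 FPKM (-0.36, adjusted p = 0.0554), which passed after quantile normalization, and Foxo1 at 12.01 to 13.7 FPKM (-0.37, adjusted p = 0.0568), both below all dbdb libraries. Ppara (-0.31, adjusted p = 0.0955) passed as lower without mitochondrial genes. In dbR vs. control 5 of the 21 were higher (23.8%), a share close to the 24.1% of all genes. Pparg, the receptor of rosiglitazone, was low, with 0.563 to 2.26 FPKM in control mice, 0.259 to 0.471 in dbdb mice and 0.583 to 1.20 in dbR mice.

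**Figure D4:**
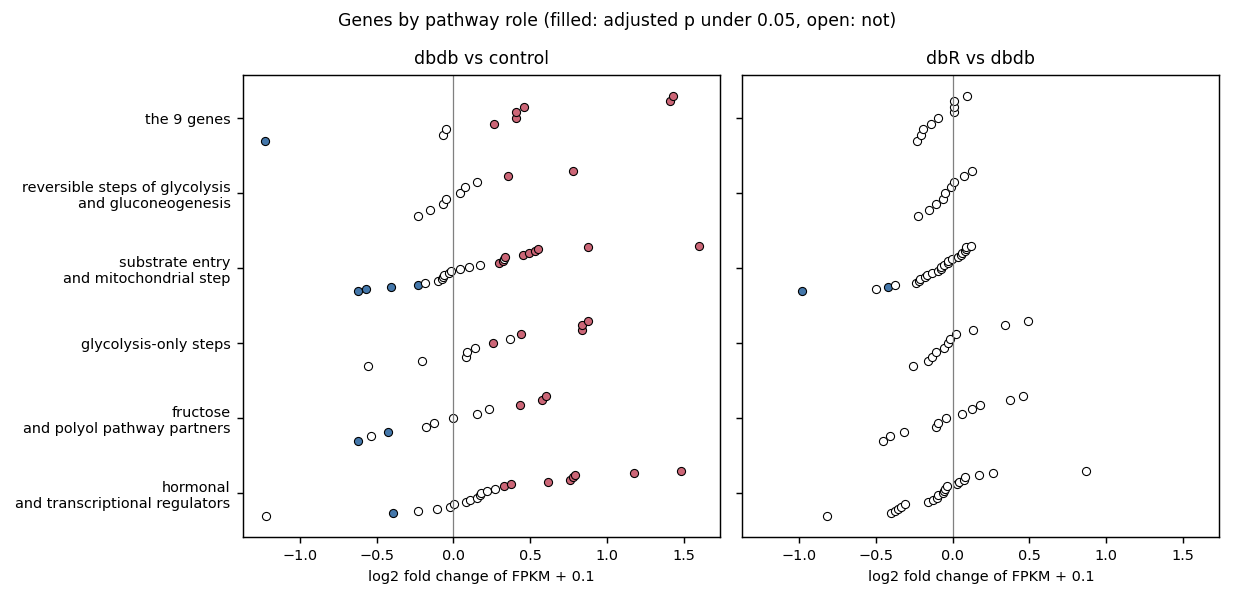
Log2 fold changes of FPKM + 0.1 for the 9 genes and for each gene of 5 pathway lists (1 point per gene; filled, adjusted p under 0.05 by limma), with dbdb vs. control on the left and dbR vs. dbdb on the right. On the left, filled points lie on both sides of 0 for substrate entry, fructose partners and regulators, and on the right the 2 filled points are genes of substrate entry, with Pdk4 at -0.98.

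For each of the 9, the genes with the most similar pattern were taken by Pearson's r of log2(FPKM + 0.1) over the 9 libraries among 11614 other genes whose mean FPKM was 1 or more. Pck1 was closest to Hdac7 (r = 0.994), Tagln2 (0.983) and Slc13a2 (0.983), and G6pc to Fzd4 (0.986), Ccnd3 (0.985) and Cyp27b1 (0.976), the renal enzyme that activates vitamin D. Fbp1 was closest to Gpd1 (0.954), Cxx1c (0.951) and Rreb1 (0.949). Slc37a4 was closest to Eno1 (0.983), Uqcc2 (0.981) and Marc2 (0.976), and Pcx to Arhgap27 (0.980), Sh3rf1 (0.980) and Bcl9l (0.972). Akr1b3 followed Tlcd2 (0.989), Amz2 (0.988) and Acot9 (0.987), and Pck2 followed Hoxb8 (0.983), Gm7325 (0.981) and Pacs1 (0.980). Khk was closest to Rtca (0.968), Urod (0.965) and Sf3b5 (0.943), and G6pc3 to Rangap1 (0.950), Clptm1 (0.950) and Phb2 (0.942). Among the 9 themselves Pck1 and G6pc had r = 0.946, Fbp1 and Pcx 0.867 and Pck1 and Akr1b3 -0.924. All of these values come from the same 9 libraries in 3 groups, so that any pair of genes that differs between control and db/db mice correlates, and they are given as a description.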

How the data were processed

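RNA-seq data of 9 mice, 3 per group, were used, and the groups were taken from the sample labels. The authors removed ribosomal RNA, built directional libraries, aligned reads to GRCm38.p2 with TopHat2 2.0.9, assembled transcripts with Cufflinks 2.1.1 and Scripture, and deposited FPKM values per transcript and library. FPKM is divided by transcript length and mapped fragments, and its division between transcripts of a gene is an estimate. Files of lncRNAs were not used. FPKM of 50660 mRNA transcripts was summed over 21950 genes. Counts were not analysed here, and no interval for counting error was computed. The commonest ratio between low values of genes with 1 transcript put the relative depth of the libraries between 0.916 and 1.14 (control replicate 1 as 1), and mitochondrial genes held 26.9% to 32.8% of the FPKM.

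Genes whose mean FPKM reached 0.1 were fitted as log2(FPKM + 0.1) with limma 3.58.1 (R 4.3.3, lmFit and eBayes with a variance trend) in 1 model of the 9 libraries, with two-sided tests and Benjamini-Hochberg adjustment over all genes in each comparison. Fold changes on this scale understate those of low genes. p-values rest on 1 library per mouse. The fit was tested on simulated data. Alternatives were other pseudocounts, filters and scalings, the 6 libraries of a comparison alone, no variance trend, the top transcript, a replicate block and leaving out each library. Sequences came from RefSeq and GENCODE M21, and symbols turned into dates in the files were restored by gene identifier. Other steps used python 3.11.15, numpy 2.4.6, pandas 2.3.3 and matplotlib 3.10.9.

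The 9 genes, the gene lists and the tests were chosen with earlier results of these data known. The text names the 9 genes, the called genes of each pathway list or else its 2 most abundant, the 3 genes most like each of the 9, Lepr, and markers where a cell type is described. Sord, Tkfc and Slc2a2, and Ppargc1a, Hnf4a, Pparg, Foxo1 and Foxo3 in dbR vs. dbdb, were named for their role after their values were seen. A few genes of the lists are counted but not reported by name here.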

Additional observations from a re-analysis of the deposited data

How the results depend on the processing

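Of 459 values of the 9 genes under the alternatives, 406 kept their direction and side of the threshold, 20 lost and 9 gained a call and 24 changed sign, all of the latter in differences that were not called. In dbdb vs. control, Fbp1 lost its call with the 6 libraries alone (adjusted p = 0.0506) and Pck2 after quantile normalization (0.0594). G6pc3 turned to 0.11 without mitochondrial genes and 0.11 with the top transcript, and Khk to 0.088 and, after quantile normalization, 0.032. The number called was 4 to 6 with 1 library left out. In dbR vs. dbdb, 1 gene (Fbp1) was called without mitochondrial genes, where Pck1 turned to -0.053, Pck2 to -0.049 and Akr1b3 to -0.056. After quantile normalization Pck1 was at -0.18, Pck2 at -0.0021 and Khk at -0.027. With 1 library left out, Pck1 ranged from -0.17 to 0.18, Pck2 from -0.039 to 0.080, Akr1b3 from -0.086 to 0.13 and, in dbR vs. control, Khk from -0.059 to 0.093. G6pc3 was at 0.011 in dbR vs. control with the top transcript. The cause was not tested.

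Replicate numbers did not pair the libraries, as deviations of libraries with the same number correlated between -0.175 and 0.0615 and those with different numbers between -0.108 and 0.168. With a replicate block 6 of the 9 genes were called in dbdb vs. control, without Fbp1 (adjusted p = 0.0755), 0 in dbR vs. dbdb and 4 in dbR vs. control. Over all genes the block gave 3345, 23 and 3030 calls.

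The 108 calls over all genes in dbR vs. dbdb depended on the setting. They were 166 at a mean FPKM of at least 1, 189 after 75th percentile scaling, 234 after quantile normalization, 49 with top transcripts, 31 with no filter, 22 with the 6 libraries alone, 18 with no variance trend and 2 to 141 with 1 library left out, the fewest without dbR replicate 2. Leaving out 1 library moved the count of dbdb vs. control from 3840 to between 2755 and 3175 and that of dbR vs. control from 3497 to between 2477 and 2868. In dbdb vs. control the calls of Fbp1, Pck2 and Slc37a4 were each lost with any 1 of several libraries left out. With 1 library left out their log2 differences stayed at 0.23 to 0.31, 0.32 to 0.49 and 0.33 to 0.48.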

Other observations

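Aldose reductase also makes sorbitol as an osmolyte, so a list of 5 other genes was looked at after the values of Akr1b3 had been seen. It held genes of osmolyte accumulation and also Sord, described above, which uses sorbitol up. Of the 4 tested, Sord among them, 1 (25%) was called as higher in dbdb mice and none as lower, a share close to the 26.4% called among all genes. Slc6a6, the taurine transporter, was at 73.3 to 79.2 FPKM in control mice, 84.1 to 112 in dbdb mice and 108 to 126 in dbR mice (log2 difference 0.40 for dbdb vs. control, adjusted p = 0.0184, limma, and 0.60 for dbR vs. control, adjusted p = 0.00255). Slc5a3, the myo-inositol transporter, was at 17.8 to 18.6 and 16.3 to 18.0 FPKM in control and dbdb mice (-0.07, adjusted p = 0.52). Nfat5, the factor that drives osmolyte genes and Akr1b3 in hypertonic cells, was at 15.8 to 19.2 and 16.8 to 19.7 FPKM (-0.0048, adjusted p = 0.976). Slc6a12, the betaine transporter, was below the filter.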
